A study of Mus musculus with 36 samples.

Results

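Chromatin accessibility of cells on day 14 of direct cardiac reprogramming was compared with that of control fibroblasts. The comparison took the 3 libraries of each group, 6 of the 36 samples in the labels and 6 of the 18 that have a column in the count table, and every region of that table that passed a filter on low counts. Both groups started, per the labels, from explants of neonatal hearts of Cd-1 mice carrying an alpha-MHC-GFP reporter, out of which Thy1+, GFP- cells were sorted. The labels call these cells largely fibroblasts. The day 14 cells had received retroviruses for Gata4, Mef2c and Tbx5 (GMT) together with sb431542 and xav939, and were sorted as GFP+ on day 14. The fibroblasts had received a retrovirus for dsRed and no chemical, and were sorted as dsRed+ on day 7. The contrast thus joins the 3 factors, the inhibitors, the sort and the time in culture, and these cannot be told apart within it. Libraries of GMT cells given both inhibitors and harvested at other times (days 2, 7 and 21, 3 of each) were used to test which differences changed along the time course. The 3 libraries of day 3 were not tested against day 14, and their levels are given as a description. All 18 libraries entered the filter and the fit. The spread between replicates was thus estimated from all groups, not from the 6 compared libraries alone.

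Direct reprogramming converts one differentiated cell type into another by forced expression of transcription factors, without a pluripotent stage. Gata4 is a zinc finger factor, Mef2c a MADS box factor and Tbx5 a T-box factor, and all of them act at regulatory DNA of heart muscle genes. The alpha-MHC promoter belongs to a cardiac myosin heavy chain gene, so GFP marks cells in which a cardiac promoter has become active, and a GFP+ sort leaves out cells that received the factors without turning it on. The compound sb431542 inhibits TGF-beta type I receptors, and xav939 inhibits tankyrase and thereby lowers Wnt signalling. TGF-beta signalling is known to promote the activated, matrix-producing state of cardiac fibroblasts. In ATAC-seq an engineered Tn5 enzyme cuts and tags DNA wherever it is exposed, so reads pile up at promoters and enhancers that are free of nucleosomes. In bulk libraries like these, fewer open cells and less opening per cell cannot be told apart. Reads from the delivered Gata4, Mef2c and Tbx5 sequences would also align within those genes and cannot be told apart from reads of the cell's own copies. Peaks are given by position, as the table gives them, with no gene names.

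Sequencing depth at day 14 was 14.46, 5.359 and 4.823 M counts in replicates 1, 2 and 3, against 17.33, 6.772 and 2.34 M counts in the fibroblast libraries. A single region of chromosome 1, at 24618407 to 24622986, took 16.75, 6.328 and 31.43% of the counts at day 14, against 49.39, 49.3 and 14.53% in fibroblasts. After scaling by trimmed means of log ratios (TMM), effective library sizes were 15.13, 6.47 and 4.209 M at day 14, against 10.96, 4.323 and 2.775 M in fibroblasts. Levels below are counts scaled to a common depth (CPM) of these sizes, and 1 read was worth 0.0661 to 0.238 CPM at day 14, against 0.0912 to 0.36 CPM in fibroblasts. Pearson's r of log2 CPM across peaks was 0.781 to 0.893 among the day 14 libraries and 0.786 to 0.871 among the fibroblast libraries. Between a day 14 and a fibroblast library it was 0.57 to 0.71. Both pairs with day 14 replicate 3 gave the low values of its group. By chi-square per degree of freedom, fibroblast replicates 1 and 2 differed least of all pairs within the groups, at 1.36 against 4.83 to 13.6. That measure depends on depth and includes the region of chromosome 1 above, whose share was nearly the same in both libraries. By r, day 14 replicates 1 and 2 were closer, at 0.893 against 0.871 for fibroblast replicates 1 and 2. With the counts of fibroblast replicates 1 and 2 summed as 1 library, the comparison called 27601 peaks in place of 32626. The labels call the 3 libraries of a group biological replicates and do not say which libraries share a culture, so p-values measure the spread between these samples.

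At day 14, 32626 of 144810 peaks differed from fibroblasts, 22.5% of those tested (edgeR's quasi-likelihood test, Benjamini-Hochberg adjusted p under 0.05). Accessibility was higher at 18579 peaks, 12.8% of those tested. Their median log2 fold change was 1.82, between quartiles of 1.40 and 2.37. It was lower at 14047 peaks, 9.7% of those tested, with a median of -1.62 and quartiles of -2.05 and -1.29. A change of at least 8-fold (3 on the log2 scale) was fitted at 1883 of the higher peaks (10.1%) and at 541 of the lower peaks (3.85%). These shares are not on equal terms, since the fibroblast libraries had less summed effective depth. A peak nearly empty in fibroblasts could also pass the filter through libraries of any GMT day. The shares were not computed under other scalings. The groups did not overlap at 35% of all peaks tested, in either direction. At 16855 of the higher peaks (90.7%) all 3 day 14 libraries lay above all 3 fibroblast libraries, an order found at 19.6% of all peaks tested. All 3 day 14 libraries lay below all fibroblast libraries at 12888 of the lower peaks (91.7%), an order found at 15.4% of all peaks tested.

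Each day 14 library carried the change. Over the mean of log2 CPM in fibroblasts, the higher peaks stood at a median of 1.82 in replicate 1, 1.61 in replicate 2 and 1.59 in replicate 3. The lower peaks stood at -1.51, -1.42 and -1.48 in the same libraries. Median levels of the higher peaks were 4.23, 3.71 and 3.56 CPM in the day 14 libraries, against 1.09, 1.16 and 1.08 CPM in the fibroblast libraries. For the lower peaks these medians were 1.19, 1.39 and 1.43 CPM at day 14, against 4.10, 4.16 and 4.68 CPM in fibroblasts. These peaks were chosen on the same libraries, so the values describe the sets and test nothing.

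The scaling moved the balance of rises and falls and turned no call round. No peak called here was called in the opposite direction with RLE size factors, library totals with or without the region with most counts, trended normalization or TMM over sums of 100000-base windows. The share of calls that were higher was 56.9% with TMM, 51.4% with trended normalization and 85.3% with library totals alone, where 30923 peaks were higher and 5311 lower. Library totals moved the median of all peaks to 0.58 on the log2 scale, against 0.068 with TMM. Without fibroblast replicate 1, the deepest of that group, 11486 of the higher peaks (61.8%) and 9415 of the lower peaks (67%) were still called. Testing every region with a count left 13053 calls, of which 79.3% were higher, and an adjusted p under 0.01 left 20839.

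**Figure D1:**
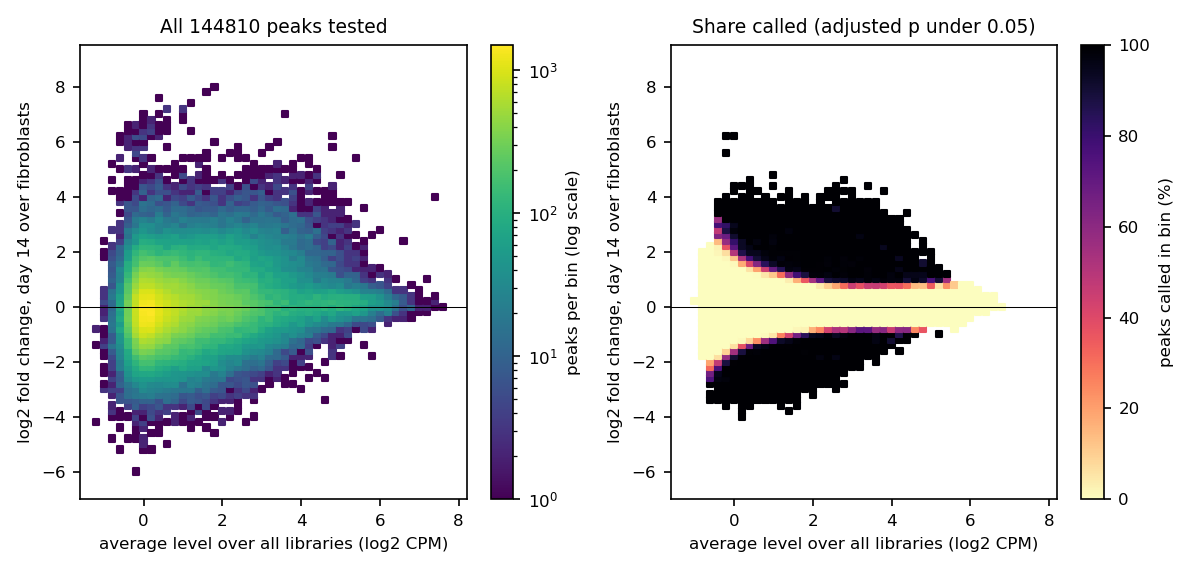
Left, peaks tested by average level over all libraries (x axis, log2 CPM) and log2 fold change of day 14 over fibroblasts (y axis), with colour for the number of peaks per bin on a log scale. Right, the share of peaks called in each bin that holds at least 5 peaks, where bins near 0 hold no calls and the fold needed for a call is larger at low levels, and 7 peaks lie outside the plotted range.

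Many of the gained peaks were close to empty in fibroblasts. Of the 18579 higher peaks, 9024 (48.6%) averaged under 1 CPM in fibroblasts, against 32% of all peaks tested. Under 1 CPM at day 14 were 5360 of the lower peaks (38.2%), against 28.3% of all peaks tested. Part of this excess is built in, since a low level in one group is what a call with a given rise selects, and such peaks passed the filter through libraries of the other groups. No count at all was found in the 3 fibroblast libraries at 91 of the higher peaks, out of 99 among all peaks tested. A single lower peak had no count in the 3 day 14 libraries, whose summed effective depth was larger.

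Among peaks that averaged at least 1 on the log2 CPM scale, 5 of the 10 with the largest fitted rises had no read in the fibroblast libraries. The order of such peaks depends on the tool, since a fitted fold over 0 counts rests on a prior count. On chromosome 11, the peak at 57780029 to 57780707 had 4.03, 2.16 and 3.56 CPM in the day 14 libraries, against 0 counts in each fibroblast library. Its 90 reads at day 14 were, after scaling, 21-fold above a floor of 3 counts over the whole fibroblast group (edgeR adjusted p 1.13e-07). This fold, and those like it below, takes the day 14 reads as observed, without their counting error. The peak at 163043787 to 163045464 of chromosome 1 had 3.11, 3.25 and 2.61 CPM at day 14, against 0 counts in each fibroblast library. Its summed reads were 18.4-fold above that floor (edgeR adjusted p 3.92e-09). Its 3 day 14 values are close together, whereas the next peak was uneven. On chromosome 14, the peak at 62508227 to 62509271 had 2.38 and 3.4 CPM in day 14 replicates 1 and 2 but 0.238 CPM, a single read, in replicate 3, against 0 counts in each fibroblast library. Its summed reads were 13.8-fold above the floor, and the groups touch to within that single read.

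A further 2 peaks without a fibroblast read were weaker at day 14. The peak at 54332748 to 54333168 of chromosome 11 had 1.19, 2.16 and 0.95 CPM at day 14, against 0 counts in fibroblasts. Its summed reads were 8.4-fold above the floor of 3 counts. The peak of chromosome 1 from 88476595 to 88477346 had 0.793, 1.08 and 2.14 CPM at day 14, against 0 counts in fibroblasts. Its summed reads were 6.53-fold above that floor. Its mean was larger earlier in the course, with 4.02 ± 1.60 CPM at day 2, 4.18 ± 0.974 CPM at day 3, 2.38 ± 1.30 CPM at day 7, 1.34 ± 0.708 CPM at day 14 and 0.771 ± 0.638 CPM at day 21 (SD, n = 3 each). The day 14 and day 7 libraries overlapped at this peak.

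Peaks with a handful of fibroblast reads could be given a ratio. The peak at 8390481 to 8391254 of chromosome 12 had 17.1, 15.8 and 12.4 CPM at day 14, against 0.0912, 0.231 and 0 CPM in fibroblasts. That is 413 reads against 2, a ratio of 145 after scaling, with an exact 95% interval of 39.8 to 1200 that covers counting error only. It held this level along the course, at 10.4 ± 4.6 CPM on day 2 and 13.1 ± 4.95 CPM on day 21 (SD, n = 3 each). On chromosome 11, the peak at 75373171 to 75374254 had 10.6, 14.2 and 9.27 CPM at day 14, against 0.182, 0.231 and 0 CPM in fibroblasts, a ratio of 68.1 with an interval of 23.1 to 332. The peak at 62536238 to 62537792 of the same chromosome had 4.36, 5.41 and 2.85 CPM at day 14, against 0.0912, 0 and 0 CPM in fibroblasts, a ratio of 79.1 with an interval of 13.9 to 3150. At each of these 3 peaks every day 14 library lay far above every fibroblast library.

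The 8 peaks described so far kept their call and direction in every alternative in which they were tested, whether 1 library was left out or the tool, scaling, filter or threshold was changed. The highest adjusted p among them was 0.0192, at 88476595 of chromosome 1. The 10 largest rises also include the peaks at 106762585 of chromosome 12 and at 91309975 of chromosome 14, which are given with the uneven peaks below.

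**Figure D2:**
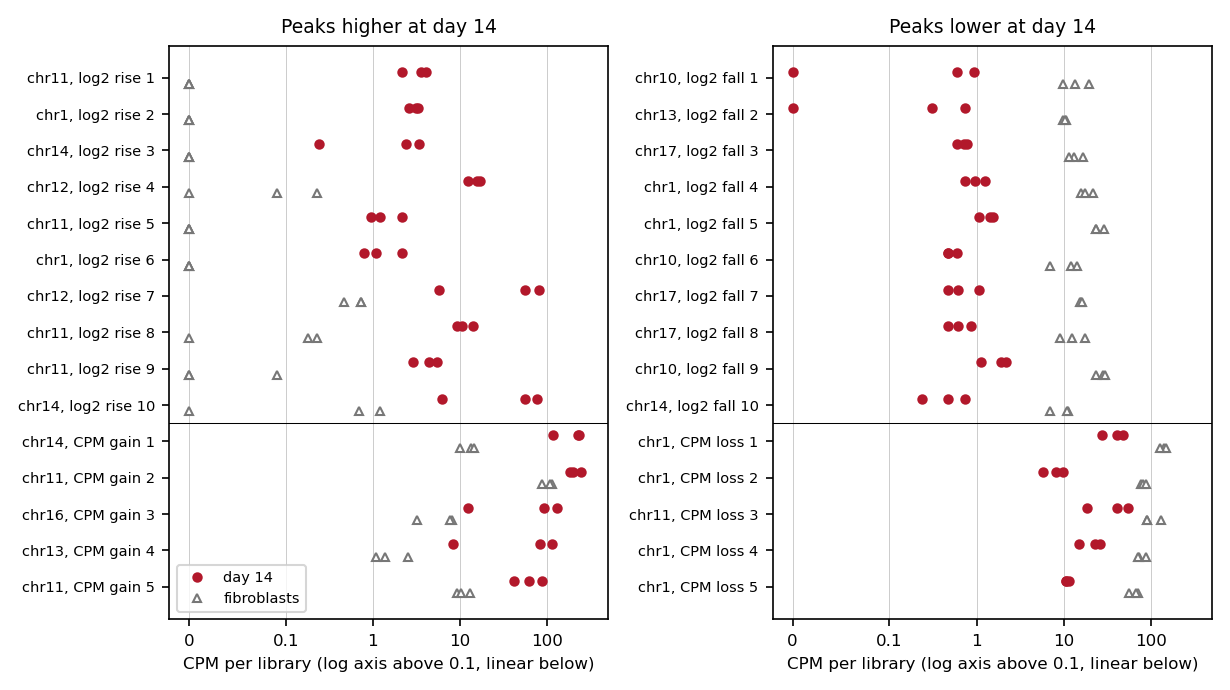
CPM in each library at the named peaks (x axis, log scale above 0.1 CPM and linear below), with day 14 libraries as filled circles and fibroblast libraries as open triangles, for the 10 largest log2 changes and the 5 largest changes of mean CPM in each direction. At all 30 peaks the 3 day 14 libraries lie on one side of the 3 fibroblast libraries, which the rule for naming required, and in the left panel a single day 14 library lies far below the other 2 at 5 of the peaks.

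The largest gain in reads among the named peaks was at a broad peak of chromosome 14, at 55584482 to 55587987. It had 225, 229 and 116 CPM at day 14, against 13.2, 14.3 and 10.1 CPM in fibroblasts. Its position was not assigned to a gene. Whether it lies at the alpha-MHC promoter, on whose reporter the day 14 cells were sorted, was thus not checked. The log2 fold change was 3.91 (SE 0.414, edgeR adjusted p 4.54e-11), and it stayed between 3.65 and 4.41 under all 19 alternatives. This locus was open in all GMT libraries, with a mean of 113 ± 34.8 CPM at day 2, 159 ± 64.9 CPM at day 3, 261 ± 17.7 CPM at day 7, 190 ± 64.0 CPM at day 14 and 222 ± 58.4 CPM at day 21 (SD, n = 3 each). Of the 31 other peaks tested within 50000 bases of it, 16 were higher and 1 was lower. The shares of all peaks tested, to set beside this and the neighbour counts below, were 12.8% higher and 9.7% lower.

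On chromosome 11, the peak at 54692638 to 54695204 had 86.1, 61.4 and 41.6 CPM at day 14, against 9.21, 10.2 and 13.0 CPM in fibroblasts. Its log2 fold change was 2.58 (SE 0.35, edgeR adjusted p 3.61e-08), and 11 of its 30 neighbours within 50000 bases were higher while none was lower. A rise on a high fibroblast level was seen at 3084192 to 3088152 of chromosome 11, with 196, 181 and 245 CPM at day 14, against 113, 107 and 85.8 CPM in fibroblasts. The groups did not overlap there, as the rule for naming required, and the call rests on few libraries. Its log2 fold change was 1.02 (SE 0.346, edgeR adjusted p 0.0239), and 9 of 19 alternatives, among them leaving out each fibroblast replicate and day 14 replicates 1 or 3, ended the call, with adjusted p from 0.000172 to 0.43.

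At 4 of the named gains, 1 of the 3 day 14 libraries was much lower than the other 2. The peak at 116982528 to 116983883 of chromosome 13 had 81.4, 8.35 and 112 CPM at day 14, against 1.09, 1.39 and 2.52 CPM in fibroblasts. The peak at 93789146 to 93789871 of chromosome 16 had 91, 12.4 and 130 CPM at day 14, against 8.12, 7.63 and 3.24 CPM in fibroblasts. The peak of chromosome 12 from 106762585 to 106763228 had 54.9, 5.72 and 80.3 CPM at day 14, against 0.73, 0.463 and 0.721 CPM in fibroblasts. The peak of chromosome 14 from 91309975 to 91311167 had 55.1, 6.18 and 76.7 CPM at day 14, against 1.19, 0.694 and 0 CPM in fibroblasts. In each of the 4, day 14 replicate 2 was far below the other day 14 libraries and, as the rule for naming required, above every fibroblast library.

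The same order ran through all days of GMT cells. The 6 GMT libraries with 4.52 to 12.8% of their counts in the top region of chromosome 1, which include day 14 replicate 2, had 6 to 17.6 CPM at the chromosome 13 peak, and the 9 with 16.7 to 35.4% had 66.8 to 112 CPM. At the chromosome 16 peak these ranges were 6.7 to 18.9 CPM and 69.8 to 130 CPM. Fibroblast replicates 1 and 2, with 49.39 and 49.3% of their counts in the top region, had low levels at these peaks, and so did replicate 3 with 14.53%. Only 9 of the 144810 peaks had every one of the 9 libraries at more than double every one of the 6, and 5 of these were called higher at day 14. That split was chosen after the values were seen, and the part of the top region's share in these rises was not tested. The chromosome 13, 16, 12 and 14 peaks lost their calls under 6, 10, 7 and 6 of 19 alternatives, in the order given above, with the highest adjusted p at 0.0787, 0.124, 0.132 and 0.178.

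Falls were ranked, like the rises, among peaks that averaged at least 1 on the log2 CPM scale and whose groups did not overlap. The largest of these was at 85803917 to 85805438 of chromosome 10, with 0.595, 0.927 and 0 CPM at day 14, against 19.2, 13.4 and 9.73 CPM in fibroblasts. Its log2 fold change was -4.64 (SE 0.426, edgeR adjusted p 9.3e-13), and 28 of 38 neighbouring peaks within 50000 bases were lower too, none higher. The best supported of the 10 largest falls was at 180329620 to 180331570 of chromosome 1, with 1.06, 1.55 and 1.43 CPM at day 14, against 23.5, 28.5 and 23.4 CPM in fibroblasts (log2 fold change -4.29, SE 0.337, edgeR adjusted p 2.08e-14). Among its 18 neighbours 6 were higher and none was lower.

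Other losses were as steep. On chromosome 17, the peak at 12287528 to 12288914 had 1.06, 0.618 and 0.475 CPM at day 14, against 15.9, 15.5 and 16.2 CPM in fibroblasts (log2 fold change -4.25, SE 0.36). The peak at 42716866 to 42718174 of chromosome 17 had 0.595, 0.773 and 0.713 CPM at day 14, against 13.1, 11.6 and 16.6 CPM in fibroblasts (log2 fold change -4.32, SE 0.392). At 74142372 to 74144137 of chromosome 10 there were 1.12, 2.16 and 1.9 CPM at day 14, against 23.2, 27.8 and 29.5 CPM in fibroblasts (log2 fold change -4.05, SE 0.334). In these peaks the lowest fibroblast library was over 10 times the highest day 14 library, and most of the fall was present early. The chromosome 10 peak averaged 5.46 ± 1.02 CPM at day 2, 2.18 ± 0.941 CPM at day 7 and 1.73 ± 0.541 CPM at day 14 (SD, n = 3 each).

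The remaining 5 of the 10 largest falls lay at 105411866 of chromosome 13, at 122727463 of chromosome 1, at 122905191 of chromosome 10, at 67158620 of chromosome 17 and at 70061049 of chromosome 14. They had log2 fold changes from -4.39 to -4.04. All 10 kept call and direction under all 19 alternatives, and the highest adjusted p among them was 3.58e-07, at 105411866.

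By reads lost, 4 of the 5 named losses of CPM lay on chromosome 1, which holds 24704 of the 144810 peaks tested. Of the peaks of chromosome 1, 11.3% were lower, against 9.7% of all peaks tested. The peak at 174429790 to 174434030 had 40.5, 48.2 and 27.3 CPM at day 14, against 140, 149 and 128 CPM in fibroblasts (log2 fold change -1.84, SE 0.365, edgeR adjusted p 7.93e-05). The peak at 175841946 to 175844187 had 15, 23 and 25.7 CPM at day 14, against 72.4, 70.3 and 86.5 CPM in fibroblasts, and that at 175696298 to 175698183 had 10.5, 11.4 and 10.7 CPM at day 14, against 71.7, 55.8 and 66.7 CPM in fibroblasts. The peaks at 175841946 and 175696298 lie closer to each other than to that at 174429790. The other loss, at 86393615 to 86396673 of chromosome 11, had 53.7, 41 and 18.5 CPM at day 14, against 89, 90.9 and 129 CPM in fibroblasts. With every region tested, the calls at 174429790 of chromosome 1 and at 86393615 of chromosome 11 were lost, with adjusted p of 0.0767 and 0.505.

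**Figure D3:**
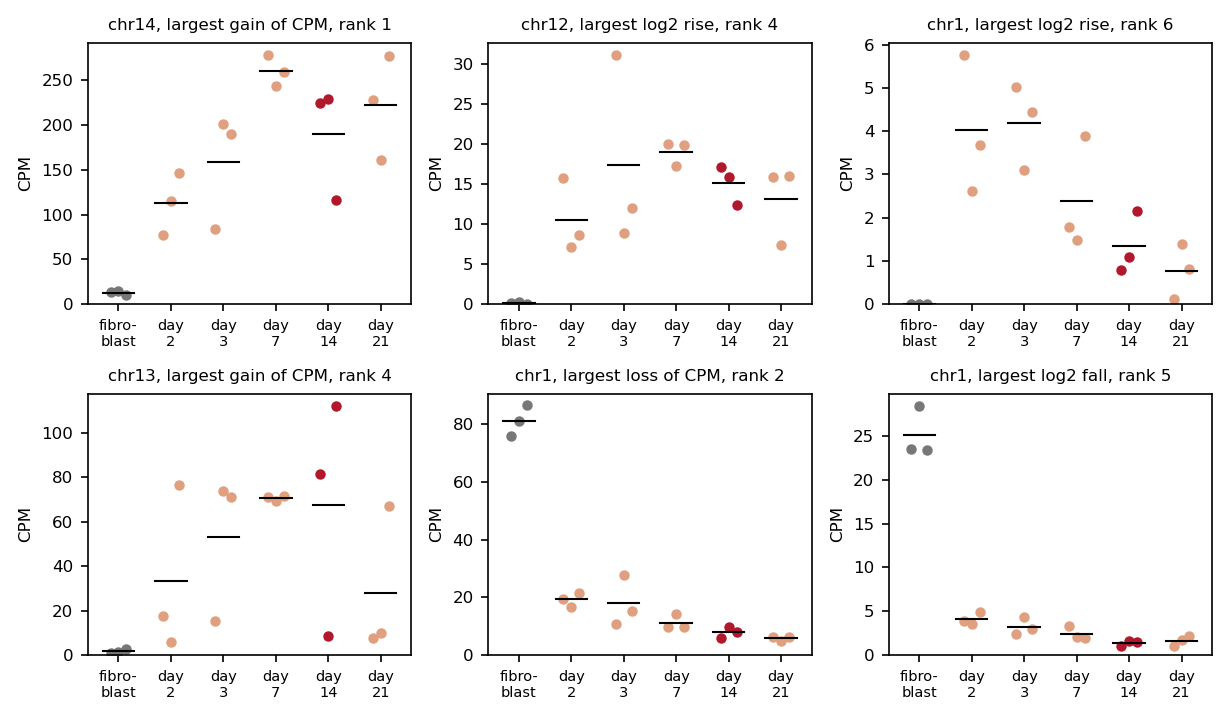
CPM of 6 named peaks in each library (points, replicates 1 to 3 left to right) with the group mean (line), from fibroblasts through days 2, 3, 7, 14 and 21 of GMT cells. The chromosome 13 peak splits into a high and a low set of GMT libraries at days 2, 3, 14 and 21, while at the falling peaks all 3 libraries of each day lie below the fibroblast libraries.

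The remaining named loss of chromosome 1 was a whole locus rather than a peak. Starting with the broad peak at 71625818 to 71631841, which had 5.75, 9.74 and 8.08 CPM at day 14, against 75.8, 81.2 and 86.5 CPM in fibroblasts, 41 of 43 tested peaks up to 71693829 were lower and none was higher. Runs were built from called peaks of one direction with gaps of at most 10000 bases, so their direction is given by the rule. Summed over all 43 peaks, accessibility was 55.2, 54.4 and 53.5 CPM at day 14, against 384, 378 and 448 CPM in fibroblasts. The stretch spans 68 kb, and it was at 96.5 ± 10.3 CPM at day 2 and 46.8 ± 0.987 CPM at day 21 (SD, n = 3 each). Within 100 kb of its centre but outside the run, 7 of 22 peaks were higher and 4 were lower, against 12.8% and 9.7% of all peaks tested. Between 39 and 42 of the 43 peaks were lower under the 5 other scalings, without day 14 replicate 3, without fibroblast replicate 1 or 3, and with only the libraries of both groups in the fit.

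Further long losses were on chromosome 10. From 85769826 to 85829394, which holds that peak at 85803917, 28 of 30 peaks were lower, and the sum was 81.7, 104 and 82.4 CPM at day 14, against 346, 327 and 325 CPM in fibroblasts. From 117112562 to 117141096, 17 of 18 peaks were lower, with sums of 52.5, 62.8 and 46.6 CPM at day 14, against 177, 151 and 195 CPM in fibroblasts. From 99792911 to 99848010, 15 of 19 peaks were lower, with sums of 12, 27.5 and 21.6 CPM at day 14, against 61.9, 59.7 and 44.7 CPM in fibroblasts. That last run was the least stable, with 6 of 19 peaks lower under library totals and 8 of 19 without fibroblast replicate 1.

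Runs of gained peaks were more frequent with TMM. There were 294 runs of at least 5 higher peaks, which held 11.4% of the higher peaks, and 82 runs of at least 5 lower peaks, which held 4.44% of the lower ones. Such counts depend on how many peaks are called in each direction, and they were not made under other scalings. The longest run of higher peaks and a run of 29 lay side by side on chromosome 13. From 11829572 to 11979768, 32 of 68 peaks were higher and none was lower, and the sum over the 68 was 222, 297 and 200 CPM at day 14, against 106, 87.4 and 79.6 CPM in fibroblasts. From 11991408 to 12109680, 29 of 60 peaks were higher, with sums of 167, 235 and 136 CPM at day 14, against 86.6, 74 and 74.2 CPM in fibroblasts. In the 100000-base window from 12100001, which overlaps the end of this run, 19 of 43 peaks were higher, and the window had 287, 253 and 149 CPM at day 14, against 81.8, 70.9 and 75.8 CPM in fibroblasts.

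On chromosome 16, from 38586165 to 38675003, 29 of 46 peaks were higher, with sums of 340, 284 and 220 CPM at day 14, against 92.6, 88.8 and 73.1 CPM in fibroblasts. On chromosome 14, from 63815830 to 63888968, 26 of 42 peaks were higher, with sums of 407, 356 and 192 CPM at day 14, against 130, 131 and 127 CPM in fibroblasts. At day 2 the chromosome 14 stretch had 384, 954 and 750 CPM, which overlaps the day 14 values, and the difference between these days was not tested for it. Genes were not assigned to these stretches, so whether reads from the delivered factors add to them was not checked. No peak of these 4 runs was lower under any scaling tried, and without fibroblast replicate 1 the higher peaks numbered 23, 20, 17 and 15 in the order given here.

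**Figure D4:**
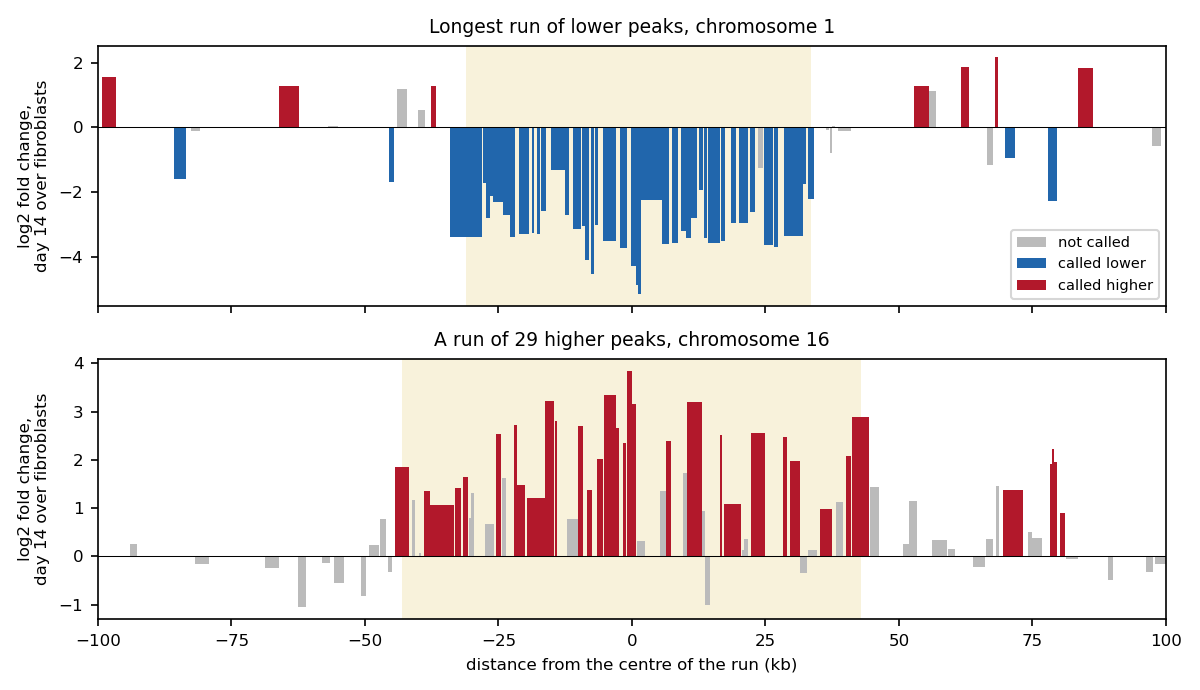
Log2 fold change of day 14 over fibroblasts (y axis) at each tested peak by distance from the centre of the run in kb (x axis), with bar width for peak width, red for peaks called higher, blue for peaks called lower and grey for peaks not called. The shaded 68 kb run on chromosome 1 has 41 of 43 peaks called lower, and the shaded 88.8 kb run on chromosome 16 has 29 of 46 peaks called higher.

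Summed over windows of 100000 bases, accessibility differed at 1867 of 10669 windows, 17.5% of those tested (edgeR adjusted p under 0.05). It was higher in 1106 windows (10.4%, median log2 fold change 0.62) and lower in 761 (7.13%, median -0.49). These medians cannot be set beside those of called peaks, since the fold needed for a call is larger at low levels. Windows also sum the regions that the filter on low counts left out. With library totals alone, 1226 windows were higher and 9 lower. A change of at least 2-fold was seen in 83 higher and 13 lower windows. Of the 8732 windows with a called peak, 4532 (51.9%) held both a higher and a lower one. The count of windows depended on single libraries, with 3219 called without day 14 replicate 3 and 779 without fibroblast replicate 1.

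The strongest rise of a named window was on chromosome 12, from 81100001 to 81200000, with 136, 152 and 88.2 CPM at day 14, against 35.1, 33 and 52.9 CPM in fibroblasts (log2 fold change 1.67, SE 0.204, edgeR adjusted p 7.02e-06). Chromosome 15 had a pair of them. The window from 27400001 had 266, 243 and 173 CPM at day 14, against 76.7, 69.3 and 73.6 CPM in fibroblasts, and 17 of its 34 peaks were higher. The window from 25800001 had 289, 315 and 265 CPM at day 14, against 101, 92.6 and 102 CPM in fibroblasts, and 21 of its 38 peaks were higher. On chromosome 13, the window from 46600001 had 147, 134 and 72 CPM at day 14, against 37.7, 45.3 and 37.7 CPM in fibroblasts. In these windows day 14 replicate 3 was the lowest of its group and, as the rule for naming required, above each fibroblast library.

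The falling windows named lay on chromosomes 1, 10, 12 and 16. The window of chromosome 1 from 71600001, which holds the 41-peak run, had 158, 157 and 116 CPM at day 14, against 431, 439 and 582 CPM in fibroblasts (log2 fold change -1.75, SE 0.239). From 45400001 of chromosome 1 there were 44.3, 51.2 and 57.8 CPM at day 14, against 149, 145 and 161 CPM in fibroblasts, and 13 of 21 peaks were lower (log2 fold change -1.58, SE 0.137, edgeR adjusted p 8.1e-08). The window of chromosome 10 from 85800001 had 82.8, 96.8 and 78.8 CPM at day 14, against 263, 236 and 282 CPM in fibroblasts. From 110800001 of chromosome 12 there were 54, 50.4 and 48.8 CPM at day 14, against 119, 117 and 122 CPM in fibroblasts. From 57700001 of chromosome 16 there were 39.7, 38.2 and 42.2 CPM at day 14, against 81.6, 91.7 and 88.8 CPM in fibroblasts, with 10 of 12 peaks lower. All 10 named windows kept call and direction under all 13 alternatives.

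Narrow peaks fell less often than wide ones. Of the peaks under 500 bases, 15.1% were higher and 5.25% lower at day 14. Of those of 500 to under 1000 bases, 12.2% were higher and 7.11% lower, and of those of 1000 to under 2000 bases, 11.9% were higher and 9.79% lower. At 3000 bases or more, 14.3% were higher and 11.6% lower. With trended normalization the excess of rises remained for peaks under 500 bases, at 17% against 4.64%, while peaks of 3000 bases or more turned round, with 9.85% higher and 19.6% lower.

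By average level, the share of calls that were higher was larger in each higher quartile of all peaks. In the lowest quartile, 2.7% of peaks were higher and 5.79% lower, and in the highest quartile 26.9% were higher and 11.3% lower. Part of this gradient is built in, since the average covers all 18 libraries, most of them of GMT cells. A rise held along the GMT days lifts that average, and a fall held along them lowers it. The gradient also depends on the scaling. Trended normalization, which fits an offset along the average level, gave 4.31% against 4.35% in the lowest quartile and 21.4% against 18.4% in the highest. Chromosomes were alike in how many peaks were called but not in the split. Rises made up 50.3% of calls on chromosome 1 and 63.6% on chromosome 11, and with trended normalization 45.3% and 57.6%.

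**Figure D5:**
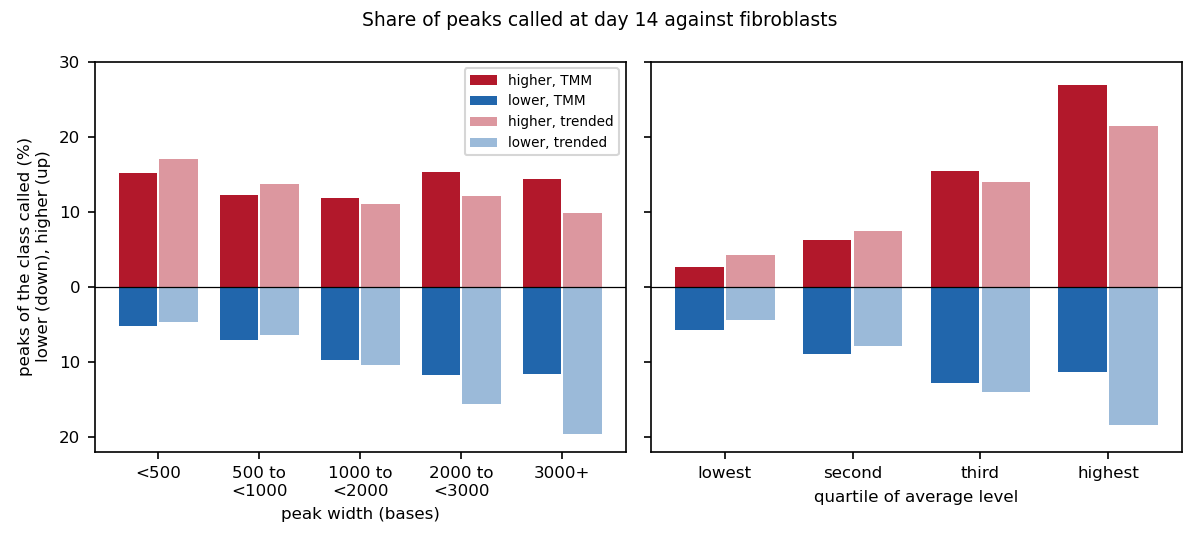
Share of peaks called at day 14 against fibroblasts (y axis, percent, higher above 0 and lower below 0) by peak width in bases (left) and by quartile of average level (right), with TMM in dark bars and trended normalization in light bars. Rises make up 74.2% of calls with TMM and 78.5% with trended normalization among peaks under 500 bases, and 70.4% and 53.7% in the highest quartile of level.

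Day 14 was then set against the other days of GMT cells. Against day 7, no peak was called by edgeR's quasi-likelihood test or by DESeq2, with 10373 peaks (7.16%) at an unadjusted p under 0.05 and a smallest adjusted p of 0.122. Against day 21, no peak was called by either tool, with 4757 peaks (3.28%) at an unadjusted p under 0.05. These counts do not show that the days were alike, since 3 libraries per group leave small differences undetected, and 9 peaks were called against day 7 without day 7 replicate 2. The peaks higher at day 14 than in fibroblasts had median levels of 1.04 CPM in fibroblasts, 3.43 CPM at day 2, 3.66 CPM at day 3, 4.03 CPM at day 7, 3.88 CPM at day 14 and 3.72 CPM at day 21. The lower peaks had 4.34, 1.72, 1.68, 1.43, 1.31 and 1.47 CPM in the same order. The fibroblast and day 14 levels chose these peaks, and the levels on the other days are given as a description.

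Against day 2, 3048 peaks differed at day 14, 2.1% of those tested (edgeR adjusted p under 0.05). At day 14, 1167 were higher (0.806%, median log2 fold change 1.60) and 1881 were lower (1.3%, median -1.46). The higher ones had median levels of 1.34 CPM in fibroblasts, 1.48 CPM at day 2, 2.33 CPM at day 3, 3.52 CPM at day 7, 4.50 CPM at day 14 and 3.91 CPM at day 21. The lower ones had 2.60, 5.74, 4.50, 3.20, 2.04 and 2.56 CPM in the same order, so their median was high at day 2 and near the fibroblast level at day 14. The mean at day 2 and day 14 lay above the fibroblast mean for 725 of these 1881 peaks (38.5%), and the fibroblast mean lay between both for 783 (41.6%). The count fell to 472 without day 14 replicate 1 and to 64 with every region tested.

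The clearest fall after day 2 was at 83772366 to 83773128 of chromosome 13. It had 1.32, 1.7 and 1.9 CPM at day 14, against 42.3, 109 and 46.2 CPM at day 2 (log2 fold change -5.40, SE 0.463, edgeR adjusted p 2.45e-10), and the fibroblast libraries had 0.547, 0.231 and 1.08 CPM. Between these days it had 31.0 ± 19.0 CPM at day 3 and 3.70 ± 2.00 CPM at day 7 (SD, n = 3 each), and the call held in all 18 alternatives. Its position was not assigned to a gene, so whether reads from the delivered factors add to its levels was not checked. On chromosome 1, the peak at 173411591 to 173411987 had 0.397, 0.773 and 0.475 CPM at day 14, against 5.12, 48.7 and 16.5 CPM at day 2, with 2.19, 1.85 and 1.08 CPM in fibroblasts. Its call was lost in 3 of 18 alternatives, among them leaving out day 14 replicate 1. The peak at 47420515 to 47421459 of chromosome 14 had 1 read in all at day 14, in replicate 3, against 0.64, 1.85 and 2.44 CPM at day 2, and its call was lost without day 14 replicate 1.

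The 3 peaks named for the largest rises after day 2 rest on few reads. The peak at 33743820 to 33744741 of chromosome 17 had 0.595, 0.464 and 1.43 CPM at day 14, from 18 reads, against 0 counts at day 2. Those at 81594430 of chromosome 13 and at 81308134 of chromosome 1 each had 1 read at day 2 and means of 1.03 ± 0.404 and 1.01 ± 0.452 CPM at day 14 (SD, n = 3). Their calls were lost in 9, 10 and 14 of 16 alternatives, in the order given here.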

How the data were processed

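ATAC-seq libraries of mouse cells were used as the whole-number read counts per region that the authors deposited, which were not normalized. The tools were Bowtie2, Picard, MACS2 and edgeR and the build mm9, per the submitters' processing notes, without versions. The sources used here give no settings for aligning reads, removing duplicates, shifting cut sites or calling peaks, nor which of the named sequencing cores handled which library. The table as held has 1393120 complete regions on chromosomes 1 and 10 to 16 and on chromosome 17 up to 79.1 Mb, so totals and counts of peaks cover that part of the genome. Starts and ends are printed as the table gives them.

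Regions were kept by filterByExpr (minimum count 10, minimum total 15), which left 144810 peaks, 10.4% of regions with 79.2% of counts. All 18 libraries entered 1 fit with a mean per group in edgeR 4.0.16 (R 4.3.3; TMM, robust glmQLFit, glmQLFTest, two-sided, 12 residual degrees of freedom, common biological coefficient of variation 23.8%), and p-values were adjusted over all peaks. The fit was tested on simulated data. DESeq2 1.42.0 and limma 3.58.1 were alternatives. Folds against 0 counts use a floor of 3 counts over the group and take the day 14 reads as observed. Ratios carry exact 95% binomial intervals. Intervals cover counting error only, and the floor only that of the 0 counts, since reads carry no molecular identifiers.

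Named peaks had an average log2 CPM of at least 1, groups that did not overlap and at most 1 peak per 100000 bases on either side. They were the 10 largest log2 changes and 5 largest changes of mean CPM per direction, and, against other days, up to 3 per direction without that level minimum. Named windows were the 5 largest changes per direction at an average log2 CPM of at least 5, with groups that did not overlap. Members, lists and tests were chosen with earlier results of these data known. Planned gene lists and cell type markers, and sequences, were not used here for want of an annotation and genome of build mm9, so the labelled cell types were not checked.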

Additional observations from a re-analysis of the deposited data

Results flagged for a closer look

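A direct test of the difference between days, day 14 against day 2 of GMT cells, called 3048 peaks (edgeR adjusted p under 0.05). At these peaks the change from fibroblasts, which both days share, was not the same on both days. At day 14, 1167 were higher than at day 2 and 1881 were lower, and DESeq2 called 2478. Outlier tests within a group need at least 4 libraries and were not run with 3 per group.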

How the results depend on the processing

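Against fibroblasts, 32626 peaks were called, 20226 with a minimum count of 30, 13053 with no filter on low counts and 20839 at an adjusted p under 0.01. Leaving out 1 library gave 21876 to 31630. The share of calls that were higher, 56.9%, was 55.4% with RLE size factors, 85.3% with library totals alone, 56.3% with totals without the region with most counts, 51.4% with trended normalization and 63.6% with TMM over sums of 100000-base windows. It was 53.8% with a minimum count of 30, 79.3% with no filter, 58.2% at an adjusted p under 0.01, 55.1% with DESeq2, 50.4% with limma voom, 51.1% with only both groups in the fit, 57.8% with fibroblast replicates 1 and 2 summed, a choice made after seeing the data, and 55.7 to 61.2% without 1 library. Against day 7, 0 to 9 peaks were called without 1 library. Against day 2, where 3048 were called, there were 919 with library totals, 1341 with only both groups in the fit, 64 with no filter, 785 at an adjusted p under 0.01 and 472 to 3176 without 1 library (leaving out day 14 replicate 1 gave 472, day 2 replicate 2 gave 1009 and day 2 replicate 3 gave 1092). Of windows, 1867 were called, 1235 with library totals (1226 higher, 9 lower), 9551 of 20000 bases, 802 at an adjusted p under 0.01 and 779 to 3219 without 1 library (at day 14, leaving out replicate 1, 2 or 3 gave 821, 974 and 3219, and in fibroblasts leaving out replicate 1 or 2 gave 779 and 1049). The cause was not tested. With the replicate block, 31968 peaks were called against fibroblasts and 1827 windows. Same-numbered libraries of both groups did not deviate together (r of deviations -0.0213, -0.00186 and -0.0495 for numbers 1, 2 and 3), so the number is not taken as a pairing. Of the 30 named peaks, 7 lost their call in at least 1 alternative, in 40 of 569 results in all, none reversed, and the 10 named windows kept theirs in all 130. Depth limits the weakest levels, since 1 read is worth up to 0.36 CPM.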
